A study of Mus musculus with 5 samples.

Results

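The genes described here are 10 components of bone morphogenetic protein (BMP) signalling that sit in the receiving cell. They are the receptor genes Bmpr1a, Bmpr1b, Acvr1 and Bmpr2, the signal transducers Smad1 and Smad5, the inhibitory Smads Smad6 and Smad7, and the target genes Id1 and Id3. They were taken from the table by gene symbol, and the set was proposed with earlier results of these data known; all 10 had a single row each among 22653 genes of the deposited expression table. The RNA came from E11.5 mouse forelimbs (47 to 48 somites), strain background mixed C57BL/6 and Swiss Webster, in 3 control and 2 Prmt5cKO samples, described as biological replicates. The Prmt5cKO embryos were Prx1Cre+/-;Prmt5c/c, that is, both copies of the arginine methyltransferase gene Prmt5 were conditional and the Cre recombinase was driven by Prx1 sequences, which act in limb bud mesenchyme. The labels call the other group only control, and whether those embryos carried the Cre or a conditional allele is not stated in what was used here. Nor is it stated whether a sample held 1 embryo or several. For each gene and genotype the authors deposited 1 FPKM value (a fragment count scaled to transcript length and library size), beside their own log2 fold change, taken as Prmt5cKO over control, and a q-value. Values below therefore come without an SD, and sequencing depth is unknown.

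BMP ligands bring together type I and type II receptors, which are serine/threonine kinases. The type II receptor activates the type I receptor, and the latter phosphorylates Smad1, Smad5 and Smad9, which enter the nucleus with Smad4 and switch on targets such as the Id genes. Smad6 and Smad7 are induced by the same signal and damp it. In the limb bud, BMP signalling takes part in ridge maturation, in the condensation of cartilage and in cell death between the digits. Transcript levels do not show how much of a receptor or Smad protein was active.

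Of the 10 genes, Bmpr1b fell and Acvr1 rose in Prmt5cKO forelimbs, 7 did not pass the threshold and Smad5 was not tested by the authors. The threshold was an authors' q under 0.05 with a mean FPKM of at least 1, a level that all 10 genes reached. By the same rule 24.1% of 10617 tested genes were called, with 4.83% higher and 19.3% lower in Prmt5cKO, so that 2 of 9 tested members is close to the share over all genes. The targeted gene Prmt5 went from 40.9 FPKM to 12.5 in Prmt5cKO, 30.6% of the control level. In whole forelimb RNA, fewer cells of a type and less RNA per cell cannot be told apart. Sex-linked transcripts differed as well: the control level of Xist, which coats the inactive X chromosome, was 87.3 FPKM against 0.392 in Prmt5cKO, and that of Ddx3y, on the Y chromosome, was 0.0840 against 21.8. Like Smad5, Xist was not tested by the authors, while Ddx3y was called higher in Prmt5cKO. For each difference below except that of Prmt5, the sex of the embryos and their genotype cannot be told apart. None of the 10 genes lies on a sex chromosome.

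**Figure D1:**
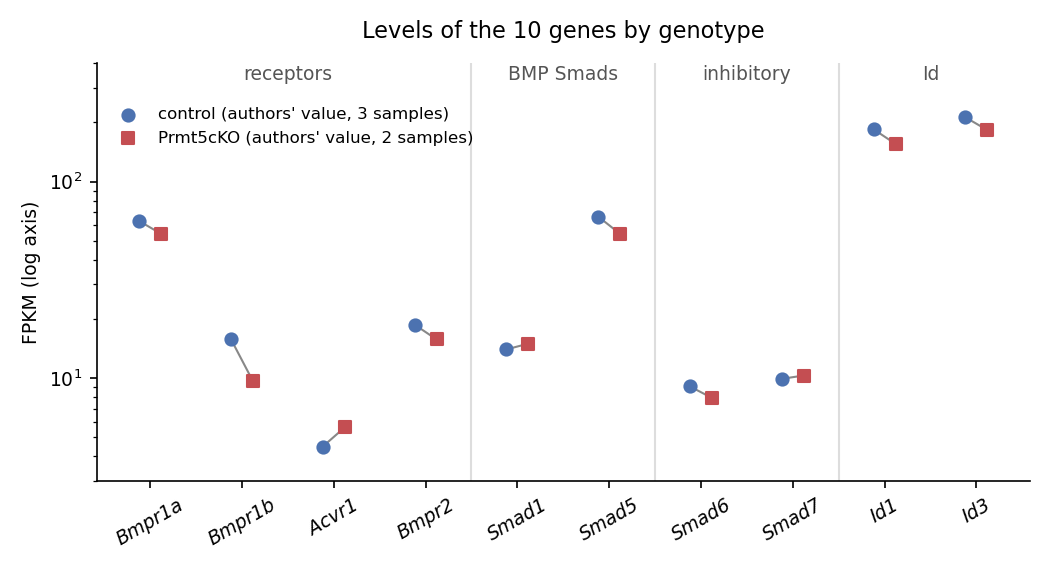
FPKM (log axis) of the 10 genes in control (circles) and Prmt5cKO (squares), with a line joining the authors' values for each gene. Levels ran from 4.49 (Acvr1) to 212 (Id3) FPKM in control, and the step down of Bmpr1b, from 15.8 to 9.64, is the steepest line.

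Levels spanned 47.3-fold in control, and FPKM is scaled per length, so genes can be set side by side. The order in control was Id3, Id1, Smad5, Bmpr1a, Bmpr2, Bmpr1b, Smad1, Smad7, Smad6 and Acvr1. In Prmt5cKO the span was 32.5-fold and the ends of the order were the same, while Bmpr1b went from rank 6 to rank 8, behind Smad1 and Smad7. Bmpr1a and Smad5 exchanged ranks 3 and 4, at 54.2 FPKM each in Prmt5cKO. Without values per sample it cannot be said which neighbours in this order differ beyond their spread.

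Bmpr1b encodes a type I receptor found in prechondrogenic mesenchyme and cartilage condensations, and is needed for digit cartilage. Its level was 15.8 FPKM in control and 9.64 in Prmt5cKO, 61.1% of the control level. The authors' deposited table gives a log2 fold change of -0.71 and lists q as 0, as it does for 144 of the tested genes. A lower fold change than this was listed for 4.94% of tested genes in the authors' deposited table. Bmpr1b spans the minus strand of chromosome 3 from 141837136 to 142169425 (GRCm38, GENCODE M21) and has 4 annotated coding transcripts. Its FPKM covers the whole gene, so the fall cannot be placed at a start site. Of 5 listed cartilage condensation markers, 3 reached the minimum level and all 3 fell, where 19.3% of all tested genes fell. The summed level of these 3 was 198 FPKM in control and 92.8 in Prmt5cKO. Below the minimum level, Acan was at 58.8% of its control level and Matn1 at 99.5%. Sox9, the factor that starts cartilage formation, went from 15.1 to 9.98 FPKM, and none of the 5 was at 0 in either genotype. The part of this difference in the fall of Bmpr1b was not tested.

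Bmpr1b is the member with the lowest fold change, and the 250 bases before 2 of its RefSeq starts are shown to give the sequence context of a gene with several promoters. Capitals mark CAGAC or its reverse complement GTCTG, the short box that Smad proteins can bind. Both windows are on the minus strand of GRCm38.p6, written 5′ to 3′, and hold no annotated exon of Bmpr1b. The more upstream window lies at chr3:141982265-141982514 and the other at chr3:141931589-141931838. Both lie inside the annotated span of the gene, whose 5′ end is at 142169425, and no window found for Bmpr1b covers that end.
Bmpr1b upstream start: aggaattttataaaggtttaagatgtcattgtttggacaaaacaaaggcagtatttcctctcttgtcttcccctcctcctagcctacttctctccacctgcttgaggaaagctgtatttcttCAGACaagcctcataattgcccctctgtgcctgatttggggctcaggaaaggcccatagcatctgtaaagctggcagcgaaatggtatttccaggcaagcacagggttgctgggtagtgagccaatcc
Bmpr1b downstream start: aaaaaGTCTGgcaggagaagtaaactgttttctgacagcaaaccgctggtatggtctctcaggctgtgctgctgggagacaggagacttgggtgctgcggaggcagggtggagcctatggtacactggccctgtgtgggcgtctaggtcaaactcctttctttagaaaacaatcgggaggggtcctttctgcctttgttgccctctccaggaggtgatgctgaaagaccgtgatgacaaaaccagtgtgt

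Each of these windows holds 1 such box, and their GC content was 46.8% and 52.8%, the lowest among the 12 windows found for 8 of the members. The third Bmpr1b window overlaps an annotated exon, is not printed and holds no box. It shares bases with the downstream printed window, and windows of Smad5 also overlap, so the 12 windows are not all separate stretches. A box was found in 4 of the 12 windows (the 2 printed, that of Id3 and 1 of the 3 Smad5 windows), against 42.2% of all 32851 windows of the same length. The palindrome GGCGCC, a GC-rich element that BMP-activated Smads can bind, was found in 3 windows (Bmpr1a, Bmpr2 and another Smad5 window) and in 9.59% of all windows. The motifs share no overlap in these windows, and a match is a description of the letters, not of binding.

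Acvr1, which encodes the type I receptor ALK2, was the lowest of the 10 genes in both genotypes. Its control level was 4.49 FPKM and its Prmt5cKO level 5.63, 125% of the control level. The authors' deposited table gives a log2 fold change of 0.33 with q = 0.0466, close to the threshold. A higher fold change was listed for 5.46% of tested genes in the authors' deposited table. Acvr1 spans the minus strand of chromosome 2 from 58388644 to 58567157. The 2 type I receptors that passed thus moved in opposite directions. Whether their changes differ was not tested, because that needs values per sample.

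Bmpr1a encodes the type I receptor with the highest level in this tissue and is broadly expressed in mesenchyme and ectoderm. Its control level was 63.0 FPKM and its Prmt5cKO level 54.2. The authors' deposited table gives -0.22 as the log2 fold change, with q = 0.117. An antisense gene, Gm17110, overlaps its exons on chromosome 14 (34410734 to 34503341, minus strand). Whether the authors counted by strand is unknown here, so reads of these genes might not be told apart. Bmpr2, the BMP-specific type II receptor gene on chromosome 1 (59763400 to 59879014, plus strand), was at 18.7 and 15.7 FPKM. Its log2 fold change of -0.25 had q = 0.132 in the authors' deposited table. Both receptor genes were at 84.0% to 86.0% of their control level.

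Smad1 and Smad5 encode closely related transducers that the type I receptors phosphorylate. Smad5, on chromosome 13 (56703010 to 56742377, plus strand), was the more abundant, at 66.4 FPKM in control and 54.2 in Prmt5cKO. The authors' deposited table lists its fold change as 0 with q = 1 although the FPKM values differ, and such rows were read as not tested. The log2 ratio of its FPKM values was -0.29. A small RNA gene, Gm27301, overlaps its exons on the same strand and has no row in the table, so reads of these genes might not be told apart. Untested rows made up 9.05% of the 11674 genes at a mean of at least 1 FPKM, 16.0% of those at 50 FPKM or more and 2.29% of those from 1 to 5 FPKM. Smad1, on chromosome 8 (79338395 to 79399518, minus strand), was at 14.0 and 15.0 FPKM. Its log2 fold change of 0.10 had q = 0.707 in the authors' deposited table.

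The inhibitory Smads lay near each other and near 10 FPKM. Smad6, which acts mainly on BMP receptors and Smad1, had a control level of 9.08 FPKM and a Prmt5cKO level of 7.94. Its log2 fold change is -0.19 (q = 0.501) per the authors' deposited table. It lies on chromosome 9 (63953076 to 64022059, minus strand). Smad7, which inhibits BMP and TGF-beta receptors alike, was at 9.93 and 10.3 FPKM, with 0.06 (q = 0.712) as its log2 fold change per the authors' deposited table. It lies on chromosome 18 (75367529 to 75395935, plus strand). Neither of these feedback genes passed the threshold.

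Id1 and Id3 encode helix-loop-helix proteins without a DNA-binding region, which hold E proteins and other basic helix-loop-helix factors away from DNA. They were the most abundant members: 97.1% and 97.4% of the 11674 genes at the minimum level were lower in control. Id1, on chromosome 2 (152736251 to 152737410, plus strand), went from 185 FPKM in control to 155. The authors' deposited table lists its log2 fold change as -0.25 (q = 0.144). Id3, on chromosome 4 (136143497 to 136145755, plus strand), was at 212 and 183 FPKM, and the authors' deposited table lists its log2 fold change as -0.22 (q = 0.206). Each stood at 84.2% to 86.0% of its control level, so that the ratio of Id3 to Id1 was 1.15 in control and 1.18 in Prmt5cKO. Neither passed the threshold, which does not show that they were equal.

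Bmpr1a, Bmpr2, Id1 and Id3 had fold changes within a narrow band. Between the lowest and the highest of these 4 lay 480 tested genes, of which 79 (16.5%) passed the threshold. Not passing was thus the usual outcome at this size of change. The median log2 ratio of the 10 genes was -0.21 with a pseudocount of 1 FPKM, beside -0.12 over all 11674 genes. Without a pseudocount the median over all genes was -0.13, a shift by which most of the table leaned down: 69.8% of genes had a lower FPKM in Prmt5cKO, as had 7 of the 10 members. Relative to that median Bmpr1b was at -0.58 and Acvr1 at 0.46, while Bmpr1a, Bmpr2, Id1 and Id3 lay between -0.12 and -0.09. Smad1 was at 0.23 and Smad7 at 0.19 relative to all genes, and Smad5 at -0.16. No member changed the sign of its ratio under centring, upper quartile scaling or quantile normalization.

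**Figure D2:**
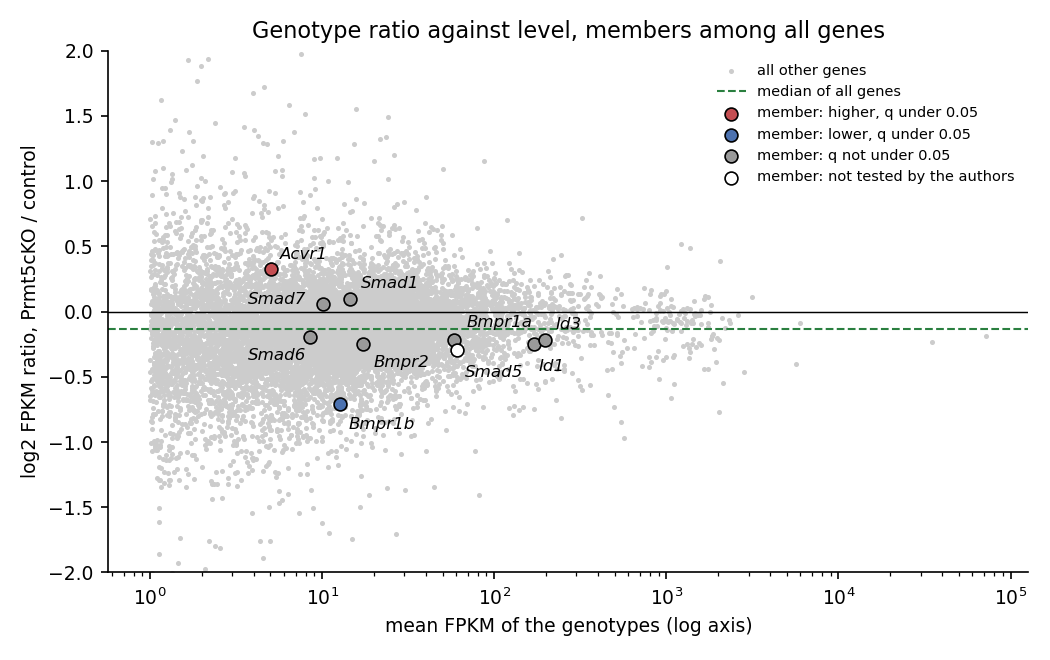
Log2 ratio of Prmt5cKO over control FPKM against the mean FPKM of the genotypes (log axis), for all genes at a mean of at least 1 FPKM (grey, with 28 beyond a log2 ratio of 2 in either direction not shown) and for the members (outlined). Most members lie just below the median of all genes (dashed, -0.13), Bmpr1b lies well below it at -0.71 and Acvr1 above it at 0.33.

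The make-up of each family does not depend on a scaling factor common to all genes. Among the 4 type I receptors of the BMP branch, with Acvrl1 added, Bmpr1a held 73.2% of the family's FPKM in control and 75.2% in Prmt5cKO. The share of Bmpr1b was 18.3% and 13.4%, and that of Acvr1 was 5.22% and 7.81%. The level of Bmpr1a was 3.99 times that of Bmpr1b in control and 5.62 times in Prmt5cKO. The sum of all 4 was 86.2 FPKM in control and 72.1 in Prmt5cKO, 83.7% of the control level. The type II receptors were more evenly divided: Bmpr2 made up 37.2% and 33.7%, and Acvr2a and Acvr2b, which also serve activins, the rest. Smad5 held 82.6% of the sum of Smad1 and Smad5 in control and 78.3% in Prmt5cKO, and that sum was 4.23 times the sum of Smad6 and Smad7 in control and 3.79 times in Prmt5cKO. Of the Id family, Id1 and Id3 held 39.3% and 45.2% in control, and 38.8% and 45.6% in Prmt5cKO. These shares carry no error, since each rests on 1 value per genotype.

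**Figure D3:**
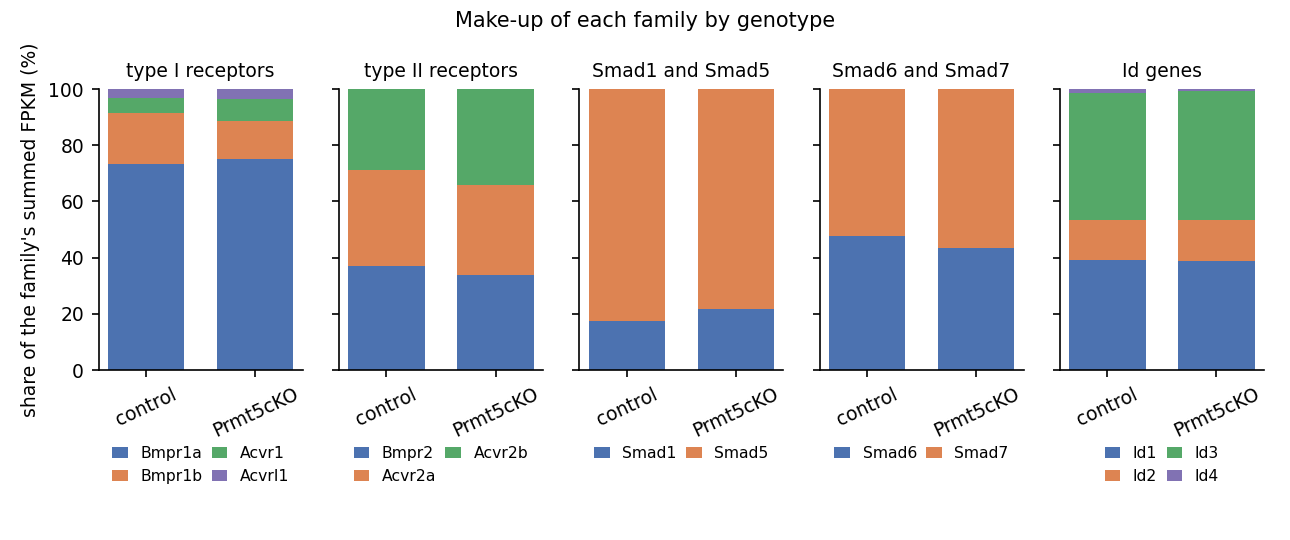
Share (%) of each family's summed FPKM held by its genes, as stacked bars for control and Prmt5cKO; there is 1 authors' value per gene and genotype and hence no error bar. Bmpr1b takes 18.3% of the type I receptor sum in control and 13.4% in Prmt5cKO, while the Id family is divided almost alike.

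The receptor, Smad and Id families hold 7 further genes, of which 2 fell, 4 missed the threshold and 1 had no test. The falls were 33.3% of the 6 tested, where 19.3% of all tested genes fell, and whether these shares differ was not tested. Id4, the least abundant Id gene, went from 6.67 to 3.28 FPKM, and the authors' deposited table gives a log2 fold change of -1.02 (q = 2.5e-07). Id4 is also in the authors' shorter deposited table, whose 208 rows have a log2 fold change above 1 in size and a q of at most 0.00958. That table holds none of the 10 members. Smad9, the least abundant BMP-activated Smad, went from 1.32 to 0.910 FPKM, with -0.53 (q = 0.0437) as the log2 fold change per the authors' deposited table. Its q was close to the threshold and its level close to the minimum of 1 FPKM. Smad4, the partner shared with TGF-beta signalling, was at 59.8 and 51.2 FPKM with q = 0.0578 in the authors' deposited table. Id2 was at 65.8 and 59.2 FPKM, and the endothelial type I receptor gene Acvrl1 at 2.86 and 2.61. Of the type II receptor genes, Acvr2a was at 17.1 and 15.1 FPKM without a test, and Acvr2b at 14.6 and 15.9.

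Co-receptors were called lower in 2 of 6 tested genes, where 19.3% of all tested genes were lower. Tgfbr3 (betaglycan), which presents TGF-beta family ligands to their receptors, fell from 6.36 to 3.68 FPKM, and Rgmb, a BMP co-receptor of the repulsive guidance family, from 9.62 to 7.77. The authors' deposited table lists -0.79 and -0.31 as their log2 fold changes. Among 24 genes for Smad turnover, phosphatases and cofactors, 19 were tested, 1 rose and 1 fell. Fkbp1a, whose product keeps type I receptors inactive, went from 31.1 to 35.6 FPKM, and Zfyve16 (endofin), a Smad anchor on endosomes, from 18.4 to 14.6. For these the authors' deposited table lists log2 fold changes of 0.19 and -0.33. Ctdsp2 and Stub1 share a row with microRNA genes and were not used.

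Other transcription factors that respond to BMP in the limb had mostly higher values in Prmt5cKO, 8 of the 9 at the minimum level. Of 9 tested, 3 rose, none fell and 6 did not pass, where 4.83% of all tested genes rose and 19.3% fell. A count without adjustment cannot be given, as the table holds adjusted values only. Tbx2, a repressor at the limb margins, rose from 6.00 to 9.20 FPKM, Hey1, a repressor of the Hairy family that also answers Notch, from 23.5 to 31.5, and Tbx3, a relative of Tbx2, from 6.38 to 7.89. The authors' deposited table lists 0.62, 0.42 and 0.31 as their log2 fold changes. Msx1, a homeobox gene of the distal mesenchyme, was at 62.4 and 77.9 FPKM with q = 0.0545 in the authors' deposited table. The median log2 ratio of this list was 0.20 with a pseudocount of 1 FPKM, beside -0.23 over the 4 Id genes and -0.12 over all genes. Whether the lists differ was not tested.

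The receptors and Smads of the activin and TGF-beta branch gave 3 falls among 4 tested genes, where 19.3% of all tested genes fell. Tgfbr2, the TGF-beta type II receptor gene, went from 13.1 to 9.58 FPKM, its partner Tgfbr1 from 58.8 to 43.4, and Smad3, the transducer of that branch, from 27.8 to 22.5. The authors' deposited table lists -0.45, -0.44 and -0.31 as their log2 fold changes. The list median was -0.30 with a pseudocount of 1 FPKM, beside -0.21 for the 10 BMP members, and the difference between the branches was not tested. Of the basic helix-loop-helix partners of Id proteins, Tcf3, Tcf4 and Tcf12 were not tested by the authors and Twist1 did not pass, at 111 and 107 FPKM.

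Upstream of the receptors, BMP ligands gave 2 rises (Bmp4 and Bmp5) and 1 fall (Gdf5) among 7 tested genes, and secreted antagonists 1 rise (Grem1) and 7 falls among 11. Bmp4, the ligand of mesenchyme and ridge, went from 16.1 to 32.4 FPKM. Gdf5, a ligand that binds the product of Bmpr1b preferentially, went from 12.9 to 2.67. Chrdl1, a chordin-like antagonist, went from 12.8 to 5.88 FPKM. Larger in level were the falls of Fstl1, from 163 to 98.5 FPKM, and Nbl1, from 25.5 to 12.7. Nog, an antagonist made in cartilage condensations, went from 1.79 to 0.871 FPKM, and its log2 fold change is -1.04 (q = 0.0226) per the authors' deposited table. Id1 and Id3 stood at 84.2% and 86.0% of control where Bmp4 stood at 202% and its antagonist Grem1 at 294%. Over the 80 pathway genes outside the 10 members, 63 were tested, 7 rose (11.1%) and 16 fell (25.4%). Over all tested genes 4.83% rose and 19.3% fell, and whether these shares differ was not tested.

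**Figure D4:**
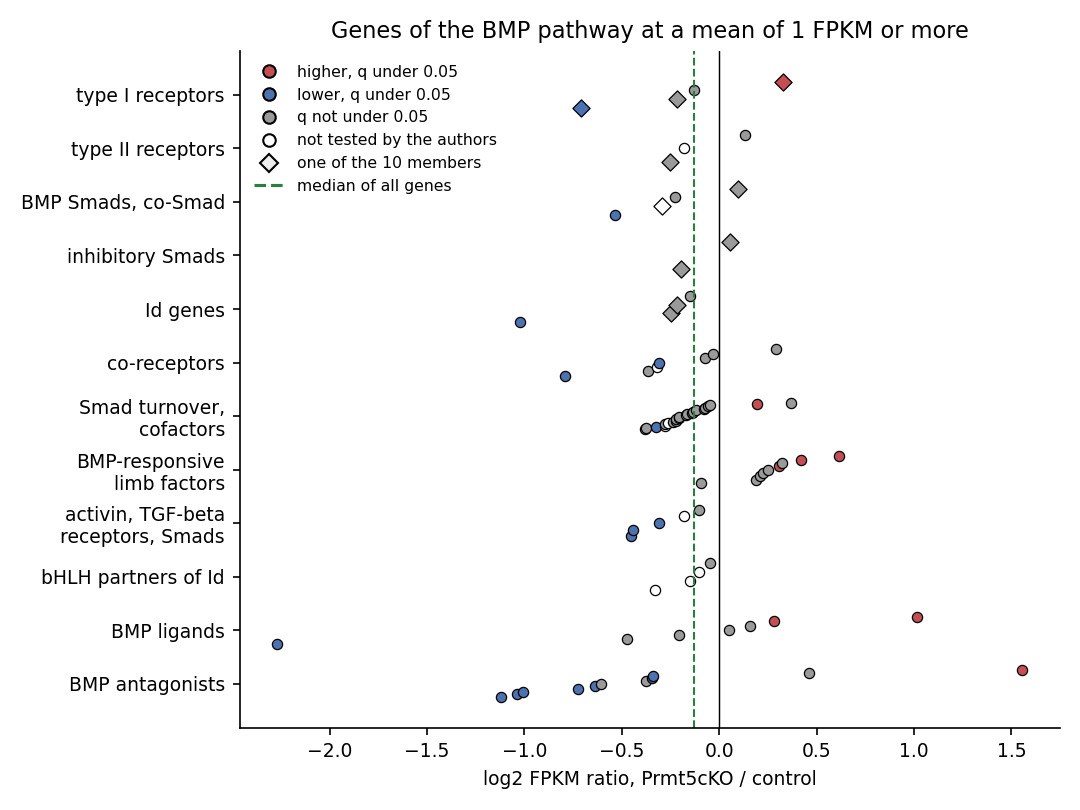
Log2 ratio of Prmt5cKO over control FPKM for pathway genes at a mean of at least 1 FPKM, by role; diamonds are the 10 members, filled colours mark an authors' q under 0.05, open symbols were not tested, and the dashed line is the median of all genes (-0.13). The members lie mostly between -0.3 and 0.1, while ligands and antagonists reach from -2.27 (Gdf5) to 1.56 (Grem1).

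The labelled tissue carried its defining markers, with a summed level of 357 FPKM in control and 344 in Prmt5cKO over 5 limb mesenchyme genes. Of these, 4 were tested and none was called, while Prrx1 was without a test. Endothelial cells also express Id1, Id3 and Smad6. For the counts that follow, 4.83% of all tested genes rose and 19.3% fell. Of 10 endothelial markers, 8 were tested and 1 fell (Erg), and the sum of the 10 was 82.0 FPKM in control and 76.4 in Prmt5cKO. Of 12 macrophage markers 9 rose and none fell, with a sum of 34.7 and 63.6 FPKM over the 11 that reached the minimum level. Of 10 ectoderm and ridge markers 4 rose (Fgf8, Sp6, Sp8 and Epcam) and none fell, with a sum of 171 and 176 FPKM. No marker of these 4 lists was at 0 in either genotype, apart from Pdgfra, which has no row of its own and was not used. Of 6 erythroid markers, the most abundant of the listed transcripts, 1 fell (Alas2) and 5 did not pass. All 6 had lower values in Prmt5cKO, as had 69.8% of all genes at the minimum level. Their sum was 9208 FPKM in control and 7328 in Prmt5cKO. Of 5 muscle progenitor markers 3 reached the minimum level and none of these passed, with a sum of 32.1 and 29.8 FPKM. The part of these cells in the values of the 10 genes was not tested.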

How the data were processed

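TRIzol-extracted RNA went into libraries by standard Illumina methods, per the labels' protocols. Cufflinks 2.1.1, TopHat2 2.0.10, Bowtie2 2.1.0 and build mm10 appear without roles in the submitters' processing notes. The sources used here do not give the annotation, the strand handling, the test or how replicates were combined. The authors deposited FPKM per genotype, a log2 fold change and a q-value (adjusted p-value), per the file headers. In tested genes, deposited folds matched the log2 of the FPKM ratio within 1.3e-05. Nor do they give the scaling between libraries. If FPKM was scaled by length and total alone, strong changes in a few abundant genes can shift all ratios.

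With Python 3.11.15 and pandas 2.3.3, rows naming 1 gene were kept, the highest mean where a symbol repeats. A gene was called at the authors' q under 0.05 and a mean of at least 1 FPKM; a fold of 0 with q of 1 was read as not tested. The code for calling and scaling was run on simulated data, which checks its arithmetic only. How well the authors' q separates changed from unchanged genes was not tested. The planned fit over samples could not be made, as the files used hold none. The members and lists were chosen with earlier results of these data known. Named genes were the members, up to 3 called genes per pathway list by fold, Prmt5, Bmp4, Grem1, Gdf5 and sex-linked markers. The remaining receptor, Smad and Id genes, Fstl1, Nbl1, Msx1, Twist1, Sox9, Acan, Matn1, Erg, Alas2, Pax3 and Pax7 were named after their values were seen. So were the ridge markers and genes without a test. Gene positions are from GENCODE M21 (GRCm38, the same assembly as mm10) and promoter sequences from RefSeq GRCm38.p6.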

Additional observations from a re-analysis of the deposited data

How the results depend on the processing

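The fall of Bmpr1b was called under every threshold tried (q under 0.01 or 0.10, no minimum level, a mean of at least 5 FPKM), and the rise of Acvr1 under all of these but q under 0.01. At that q the called members numbered 1, with 0 higher, and the called pathway genes outside the members that were higher numbered 4 in place of 7. All other counts of called members, pathway genes and genes of the whole table, autosomal genes alone included, stayed within 1.5 times. The median log2 ratio of the members was -0.085 after centring on the median ratio of all genes, -0.13 with upper quartile scaling and -0.13 with quantile normalization, beside -0.21 as deposited; pseudocounts of 0.1 and 0.01 FPKM and the sum over rows left it at that value or -0.22. The authors' q cannot be recomputed under them. No paired analysis was possible because the tables hold 1 value per genotype, and for the same reason no replicate could be left out. Depth per sample is unknown, so no limit of detection can be given.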
